A study of Mus musculus with 12 samples.

Results

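Tumours of mice given an antibody to B7-H3 were compared with tumours of mice given isotype control IgG. The comparison rests on 6 of the 12 RNA libraries of the series, chosen by their titles, 3 from isotype control mice and 3 from anti-B7-H3 mice. The other libraries, 3 from mice given anti-PD1 and 3 from mice given both antibodies, shared the statistical fit and are described only where a value needs them. In all groups the host was the immunocompetent strain C57BL/6J, the tumour grew under the skin from Yumm2.1, a single mouse melanoma line that the series title ties to β-catenin, and treatment began once the tumour had reached a set size. The age and sex of the mice, the antibody clones, the doses and the day of collection are not given in the sources used here. RNA of whole tumours was sequenced, so tumour and host cells were measured together, and fewer cells of a type and less RNA per cell cannot be told apart. The labels do not say whether the 3 libraries of a group came from separate mice, so the p-values measure the spread between these libraries, which may be technical. The series set out to describe the immune cells within tumours under each treatment.

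B7-H3, the protein of Cd276, belongs to the B7 family of membrane proteins, which also holds the ligands of PD1. It is found on many tumour cells and on fibroblasts, vessels and myeloid cells, its receptor is not settled, and it is mostly described as a brake on T cells and natural killer cells. An antibody bound to a cell can also be read by Fc receptors on macrophages, which then take up the marked cell or its antigens, digest them in lysosomes and show the peptides on class II molecules of the major histocompatibility complex (MHC).

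The 2 groups of libraries differed in make-up before any gene was compared. Total reads were 15585622 to 21298142 in isotype control and 3593110 to 3937727 in anti-B7-H3 libraries. A set of 12 satellite-like genes, whose sequence resembles centromere repeats, took 90.3% to 93.7% of matched reads in isotype control and 0.0944% to 0.222% in anti-B7-H3 libraries. Reads on all other genes were therefore fewer in isotype control (1340782 to 1512937) than in anti-B7-H3 libraries (3570258 to 3918163). Olfactory receptor (Olfr) genes were assumed to be little transcribed in these tumours. They held 6.82 to 7.38 reads per kilobase of coding length in isotype control and 0.0514 to 0.0595 in anti-B7-H3 libraries. Of 22010 isotype Olfr reads, 4930 were on Olfr93 and 500 on Olfr1055. Without Olfr93 and Olfr1055 the rate summed over the isotype libraries was 15.9 instead of 21.1 reads per kilobase. The rate over all Olfr genes was taken as the background of an isotype library. A gene was tested only where its isotype reads exceeded 3 times that rate times its coding length. The genes nearest to this limit were Pacs2, Gm10696 and Tmx1 inside it (3.0009 to 3.0012 times background) and Stx8, Uxt and Fosl1 outside it (2.9983 to 2.9998 times). Library pairs of the same group differed by a median chi-square of 0.812 to 1.74 in isotype control and 0.551 to 0.585 in anti-B7-H3, and pairs across the groups by 29.1 to 37.8. Satellite-like share, Olfr rate and reads on other genes separated the groups without overlap. Effects of the antibody and of this difference in library make-up therefore cannot be told apart, for rises or for falls.

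**Figure D1:**
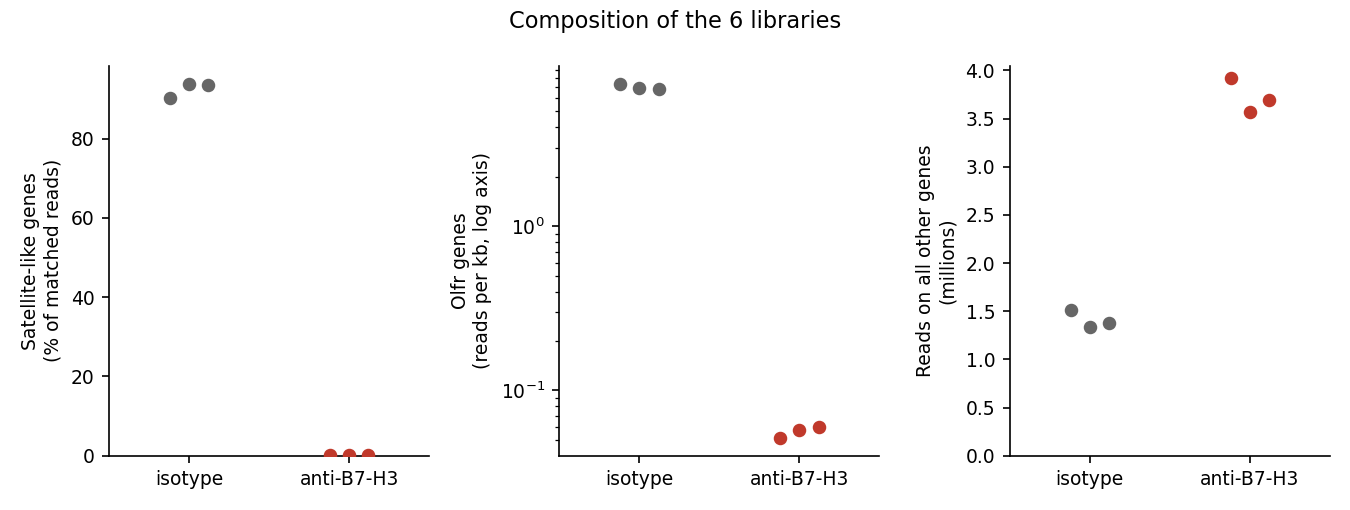
Share of matched reads on 12 satellite-like genes (left, percent), reads per kilobase on Olfr genes (middle, log axis) and reads on all other genes (right) in each of the 3 isotype and 3 anti-B7-H3 libraries. Each point is a library, and the groups do not overlap in any of the panels.

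Above this background, 4460 genes could be tested in both directions, with edgeR's quasi-likelihood test and Benjamini-Hochberg adjustment over all of them. Of these, 1476 (33.1%) were higher and 1611 (36.1%) lower in anti-B7-H3 tumours at an adjusted p under 0.05, or 69.2% in either direction, and the median log2 fold change, anti-B7-H3 minus isotype, was -0.02. The libraries of the groups did not overlap for 1563 genes that were higher (35%) and 1648 that were lower (37%). At least 2-fold changes were seen in 450 genes that rose (10.1%) and 721 that fell (16.2%). Levels are given as CPM, reads scaled to a common library size over the genes tested, fold changes are on the log2 scale with their standard error (SE), and the isotype level still holds its background reads. Another 17685 genes lay at background in isotype control, and for these only a lower bound of the fold is given, with the isotype value set to the larger of 3 reads and 3 times its expected background. A bound of at least 2-fold was reached by 240 of them (1.36%).

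The zero point of these fold changes depends on the scaling. A set of 257 genes that fell by more than 4 on the log2 scale, 140 of them with predicted or clone names, held 61.5% of isotype reads on genes tested and 1.82% of anti-B7-H3 reads, and the TMM scaling (trimmed mean of M values) trims such genes off. With read totals alone every log2 fold change would be higher by 1.14, and 642 of the 1611 falls are larger than that. Without the background rule the same 4460 genes shifted up by 0.48, with 2579 higher and 908 lower, and 87 genes called lower became higher. Falls smaller than these shifts are therefore falls against the middle of the genes tested, whereas rises move further up on both of these scales.

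**Figure D2:**
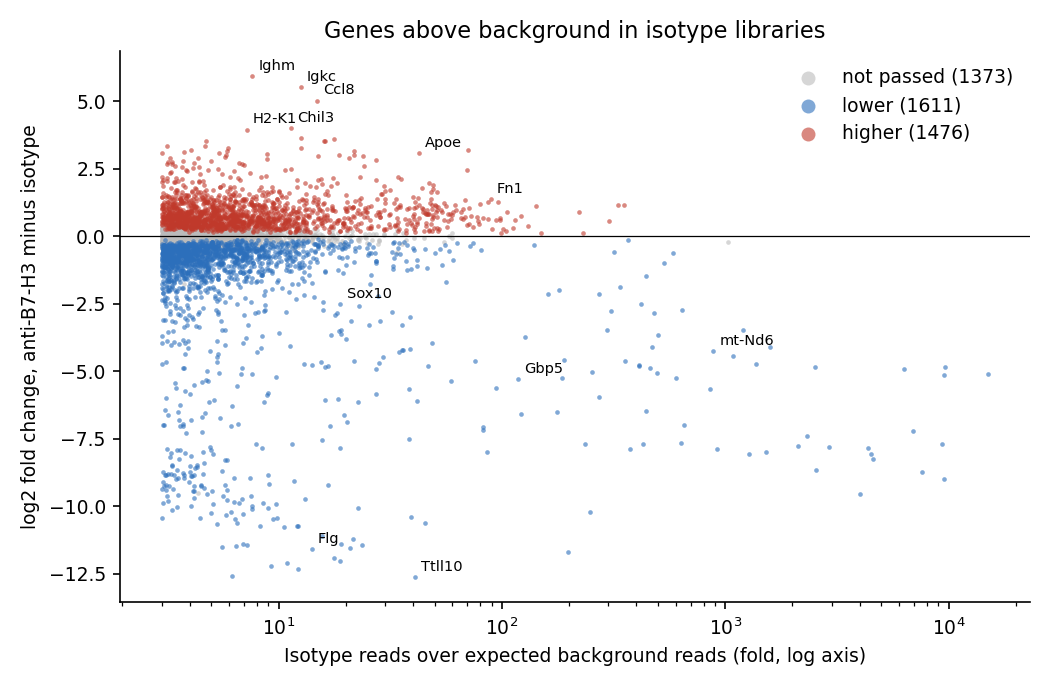
Log2 fold change, anti-B7-H3 minus isotype, of the 4460 genes tested against their isotype reads over expected background (log axis). Each point is a gene, coloured by the test, with 1476 higher, 1611 lower and 1373 not passed. Ighm, Igkc and Ccl8 mark the top, and Ttll10 and Flg, with at most 1 anti-B7-H3 read, the bottom.

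Most markers of the labelled tumour lay at background. Of 18 genes of the melanocyte lineage, only Sox10 and Axl stood above background in isotype control, and the pigment enzyme genes Tyr, Tyrp1 and Dct did not. In the 3 anti-B7-H3 libraries together Tyr had 5, Tyrp1 0 and Dct 0 reads. Of the other tissues a skin tumour could hold, 1 of 18 skeletal muscle genes, 3 of 15 keratinocyte genes and 3 of 13 red blood cell and platelet genes stood above background.

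The target of the antibody did not pass the test over all 6 libraries, a call that rests on 1 isotype library and on the background rule. Cd276 (chr9:58524298-58555437, GRCm38) was at 58.2, 31.4 and 34.1 CPM in the isotype and 50.5, 52.8 and 55.5 CPM in the anti-B7-H3 libraries, a log2 fold change of 0.31 ± 0.18 (SE, adjusted p = 0.129). The first isotype library lay above every anti-B7-H3 library and the other isotype libraries below them, so the groups overlapped. Without isotype library 1 the log2 fold change of Cd276 was 0.69 (adjusted p = 0.00746 in edgeR's quasi-likelihood test). It was 0.79 without the background rule (adjusted p = 5.72e-05) and 0.43 with the median transcript length in that rule (adjusted p = 0.0288), and over the other alternatives the adjusted p ran from 0.0519 to 0.485. Transcript levels say nothing of how much protein the antibody covered.

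CD47 and β-catenin, which the series title also names, were looked at next, with the receptor of CD47, and all 3 genes rose. Sirpa, the receptor by which macrophages read a don't-eat-me signal, was at 59.4, 48.8 and 57.3 CPM in isotype and 334, 332 and 337 CPM in anti-B7-H3 libraries, a rise of 2.58 ± 0.10 (SE, adjusted p = 2.21e-27). Its ligand Cd47 went from 56.9, 83.6 and 66.6 to 191, 189 and 208 CPM, a rise of 1.53 ± 0.12. Ctnnb1, which encodes β-catenin, went from 482, 453 and 412 to 642, 617 and 642 CPM, a rise of 0.49 ± 0.05. The rise of Ctnnb1 lay below the medians of the housekeeping (0.88) and ribosomal protein (0.93) lists, and was 0.25 with background reads subtracted. The libraries of the 2 groups did not overlap for any of these 3 genes, and the rise was largest for Sirpa. Over all genes tested 35% were higher without overlap. The PD1 ligands lay at background in isotype control. Pdcd1lg2 had 25 isotype and 887 anti-B7-H3 reads, at least 3.52-fold higher, and Cd274 had 32 and 506, at least 1.71-fold higher. Pdcd1, the receptor PD1 itself, had 7 and 51 reads, too few over background for a fold. Among further checkpoint genes, Vsir (the checkpoint VISTA) rose by 2.18 ± 0.17 and Lgals3 (galectin-3) by 2.17 ± 0.07, while Cd200 had a log2 fold change of -0.06 ± 0.19 and did not pass.

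The largest rises were in antibody genes. Ighm, the constant region of IgM (chr12:113418558-113422730), had 84, 63 and 83 reads in the isotype and 26657, 23954 and 24757 reads in the anti-B7-H3 libraries, 61.1-fold higher in CPM (log2 fold change 5.93 ± 0.07, adjusted p = 6.95e-52). Igkc, the constant region of the kappa light chain (chr6:70726435-70726966), had 38, 27 and 21 and 7350, 6895 and 6886 reads, a rise of 5.52 ± 0.08. No isotype library came near the lowest anti-B7-H3 library for either gene. Jchain, which joins IgM and IgA into polymers, had 10 reads over the 3 isotype libraries, at background, and 4032 over the anti-B7-H3 libraries, at least 24.8-fold higher. The lambda constant gene Iglc2 was at least 11.6-fold higher and Iglc1 at least 6.43-fold higher. Reads of lambda constant genes can be split between near-identical copies, so each of these is less certain than their direction.

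Of the 240 genes at background with a bound of at least 2-fold, 34 were immunoglobulin genes and 30 of those variable segments. Igkv14-126 had 2, 6 and 1 isotype and 1494, 1366 and 1406 anti-B7-H3 reads, at least 35.7-fold higher, the largest bound. Ighv11-2 had 4, 3 and 2 and 783, 715 and 709 reads, at least 18.5-fold higher. This heavy and light chain pair is known from B-1a cells whose antibody binds phosphatidylcholine. Other segments with large bounds were Igkv7-33 (at least 22-fold higher), Ighv8-8 (17.8-fold), Ighv7-1 (10.8-fold) and Igkv12-44 (10.7-fold). For Igkv14-126 the combination libraries, at 38.9 to 54.1 CPM, and the anti-PD1 libraries, at 4.66 to 7.67 CPM, lay below the anti-B7-H3 libraries at 396.2 to 396.8 CPM. Of 24 B and plasma cell genes 4 stood above background in isotype control and all 4 rose, namely Ighm, Igkc, Xbp1 (1.29 ± 0.19) and Sdc1 (1.27 ± 0.10), the last being a plasma cell and epithelial proteoglycan, and the B cell surface genes Ms4a1, Cd79a and Cd79b lay at background in isotype control. Of the 20 members at background 4 had a bound of at least 2-fold, Jchain, Iglc1 and Iglc2 among them. Without the background rule 12 members of the list rose and 6 fell.

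**Figure D3:**
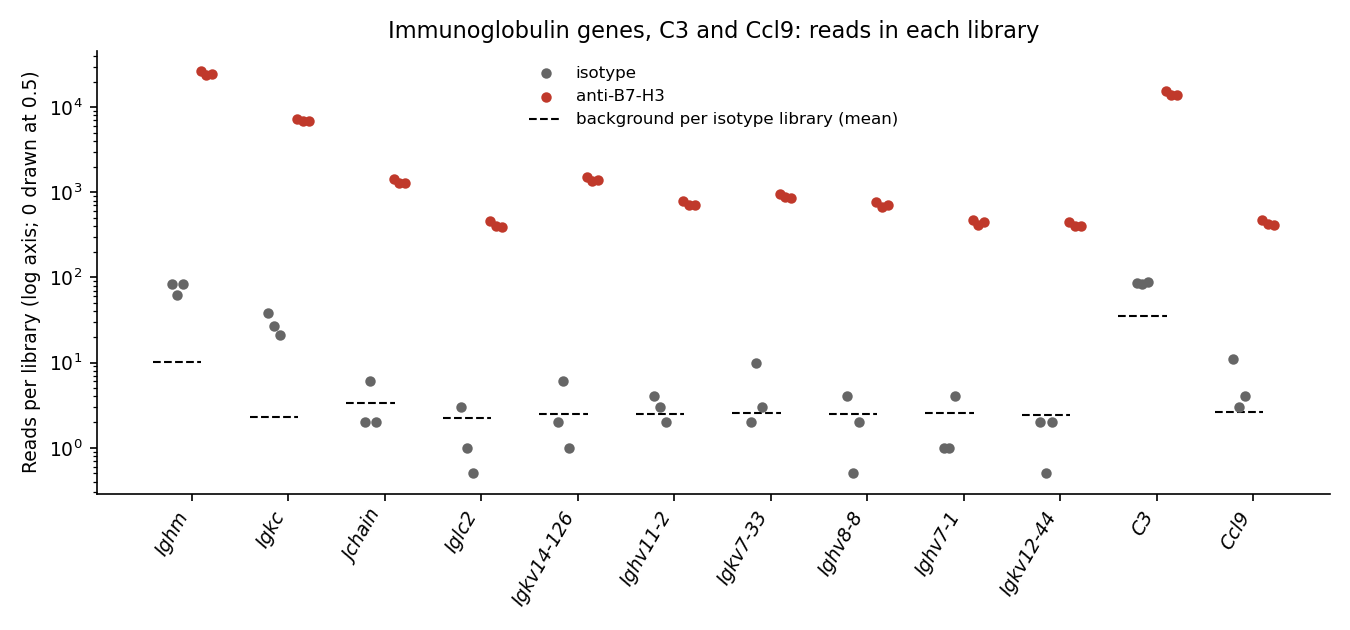
Reads in each library (log axis, 0 drawn at 0.5) of immunoglobulin genes, the complement gene C3 and the chemokine gene Ccl9, with grey points for isotype, red points for anti-B7-H3 and a dashed line for the background expected per isotype library. Isotype points of the genes right of Igkc and left of C3 lie around the dashed line, with 0 to 10 reads, and anti-B7-H3 points at 390 or more.

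Class II antigen presentation rose in every member that could be tested. Of 11 measured genes, 6 stood above background and all 6 rose, with a median log2 fold change of 3.36. H2-Aa, the alpha chain of I-A, was at 142, 132 and 156 CPM in isotype and 1739, 1738 and 1745 CPM in anti-B7-H3 libraries, a rise of 3.60 ± 0.06 (SE, adjusted p = 2.23e-44). Its partner H2-Ab1 went from 129, 109.7 and 159.5 to 1572, 1496 and 1548 CPM (3.53 ± 0.07), and H2-Eb1, the beta chain of I-E, from 114, 109.7 and 119 to 1457, 1374 and 1437 CPM (3.64 ± 0.07). All 3 chains thus rose by about the same factor, 11.5- to 12.4-fold. Cd74, the invariant chain that guides class II molecules to the endosome, rose by 3.20 ± 0.05, and Ctss, the protease that cuts it, by 3.16 ± 0.05. H2-DMa, whose protein helps to load peptides, had 45 isotype and 2015 anti-B7-H3 reads, at least 7.57-fold higher. Of the 5 class II members at background it was the only 1 with a bound of at least 2-fold.

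Class I presentation rose as well. Of 18 measured genes, 10 stood above background and all 10 rose (median 2.50), and 5 of the other 8 were at least 2-fold higher by their bound. H2-K1 was at 87.3, 73.2 and 89.8 CPM in isotype and 1304, 1281 and 1296 CPM in anti-B7-H3 libraries, a rise of 3.94 ± 0.07. H2-D1 went from 197, 172 and 206 to 2252, 2139 and 2221 CPM (3.51 ± 0.06) and H2-Q4 from 36.7, 29.6 and 60.4 to 369, 343 and 375 CPM (3.10 ± 0.12). Class I heavy chains are near-identical over long stretches, so how reads were shared between them is uncertain. B2m, their common light chain, has no such copy and rose by 2.45 ± 0.05, from 271, 282 and 237 to 1458, 1443 and 1404 CPM. The immunoproteasome subunit Psmb8 rose by 3.06 ± 0.16, and the peptide transporters Tap1 and Tap2 were at least 3.52- and 2.37-fold higher.

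Sequence before the start of these genes is shown because the tested class I and class II genes all rose, as did 5 of 6 tested interferon gamma genes, and promoters of these groups are known to carry short shared elements. For this, 3 motifs were searched on both strands in the 250 bases before each RefSeq start (GRCm38.p6): ATTGG, read CCAAT on the other strand and known as the Y box, GAAA followed after any 2 bases by a further GAAA, a core of the interferon-stimulated response element (ISRE), and TTCNNNGAA, the core of the interferon gamma-activated site, which reads the same on both strands. The 150 bases before the start are printed 5′ to 3′ on the gene's strand, with matches in capitals, and none of the printed matches overlaps another. The first of the RefSeq starts was used for H2-K1 and Irf1. The windows are chr17:34287824-34287973 (minus strand), chr17:34305717-34305866, chr17:34000348-34000497 (minus strand), chr17:35262944-35263093, chr2:122147537-122147686, chr11:53769864-53770013 and chr3:142620513-142620662.
H2-Aa: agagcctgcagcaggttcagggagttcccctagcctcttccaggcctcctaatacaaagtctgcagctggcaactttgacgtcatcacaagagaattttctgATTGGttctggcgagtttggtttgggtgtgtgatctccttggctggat
H2-Eb1: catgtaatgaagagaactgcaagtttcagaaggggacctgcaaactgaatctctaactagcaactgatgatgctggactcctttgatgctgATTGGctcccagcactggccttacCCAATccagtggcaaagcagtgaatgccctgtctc
H2-K1: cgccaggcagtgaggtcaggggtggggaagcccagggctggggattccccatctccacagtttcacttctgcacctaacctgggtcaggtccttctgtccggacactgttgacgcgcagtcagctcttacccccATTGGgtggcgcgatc
H2-D1: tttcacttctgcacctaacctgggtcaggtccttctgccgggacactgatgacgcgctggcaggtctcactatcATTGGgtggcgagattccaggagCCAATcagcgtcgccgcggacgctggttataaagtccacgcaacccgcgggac
B2m: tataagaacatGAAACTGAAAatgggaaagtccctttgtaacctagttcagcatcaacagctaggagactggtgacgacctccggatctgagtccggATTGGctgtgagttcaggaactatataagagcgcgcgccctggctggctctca
Irf1: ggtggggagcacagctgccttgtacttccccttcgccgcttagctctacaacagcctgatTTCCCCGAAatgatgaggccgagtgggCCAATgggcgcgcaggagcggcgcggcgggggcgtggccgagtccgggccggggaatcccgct
Gbp2: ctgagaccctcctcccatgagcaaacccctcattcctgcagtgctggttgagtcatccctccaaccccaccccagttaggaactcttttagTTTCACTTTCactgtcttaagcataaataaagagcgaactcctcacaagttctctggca
ATTGG stood in 7 of 9 class II genes with a window (77.8%) and 13 of 16 class I genes (81.2%), against 37.5% of all 27025 genes with a window and 41.1% of the genes tested that have one. The ISRE core stood in 11 of 21 interferon gamma genes (52.4%) against 3.46% of all genes, and TTCNNNGAA in 10 of 21 (47.6%) against 8.13%. In the other pairings, ATTGG stood in 10 of 21 interferon gamma genes (47.6%), and the ISRE core and TTCNNNGAA each stood in 2 of 16 class I genes (12.5%) and 1 of 9 class II genes (11.1%). These matches describe the letters of the windows and are neither bound sites nor causes. Only exact matches were counted, so a window without one can still hold a response element of another spelling. In H2-K1 and H2-D1 a stretch that starts like the ISRE core on the other strand, then departs from it, stayed in lower case.

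Interferon gamma genes rose where they could be tested, with an exception. The receptor chain Ifngr1 was at 53.1, 45.3 and 58.8 CPM in isotype and 177, 165 and 176 CPM in anti-B7-H3 libraries, a rise of 1.71 ± 0.12. The kinase Jak1, which carries the signal from the receptor, rose by 0.97 ± 0.07. Most of the list lay at background in isotype control, 23 of 29 genes, and 9 of these 23 were at least 2-fold higher by their bound. Among them Gbp2 had 105 isotype and 3247 anti-B7-H3 reads (at least 5.42-fold higher), the transcription factor Irf1 38 and 1452 (at least 4.33-fold), and the chemokine Cxcl9 12 and 387 (at least 3.0-fold). Guanylate-binding proteins share long stretches, so reads can be split among them. The exception was Gbp5, at 2504, 3108 and 2549 CPM in isotype and 68.5, 68.5 and 68.8 CPM in anti-B7-H3 libraries, which fell by 5.30 on the log2 scale. Its level was 497.6 to 602.9 CPM in anti-PD1 and 100.7 to 111.3 CPM in combination libraries, the same order as the share of satellite-like reads (68.7% to 74.5% and 30.1% to 34.0% in these groups), and the part of those reads in the Gbp5 level was not tested.

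Type I interferon genes did not move as a group. Of 26 measured, 6 stood above background, of which 4 rose and 2 fell. Ifitm3, a membrane protein that blocks virus entry, rose by 1.05 ± 0.11, while Ifit3 went from 55.6, 52.3 and 60.4 to 21.5, 18.9 and 18.9 CPM and fell (-1.50 ± 0.20), as did Ifit2 (-1.29 ± 0.18). None of the 20 genes at background had a bound of at least 2-fold.

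Macrophage genes rose. Of 18 measured, 12 stood above background and all 12 rose, with a median of 2.65 against -0.02 over all genes tested. Mrc1, the mannose receptor, was at 298, 253 and 248 CPM in isotype and 2412, 2386 and 2394 CPM in anti-B7-H3 libraries, a rise of 3.16 ± 0.05 (SE, adjusted p = 1.78e-43). Apoe, the lipid carrier made in quantity by tissue macrophages, went from 426, 408 and 415 to 3606, 3381 and 3551 CPM (3.07 ± 0.05). Csf1r, the receptor for the growth factor on which macrophages depend, went from 191, 232 and 197 to 1301, 1308 and 1364 CPM (2.69 ± 0.06). In each the lowest anti-B7-H3 library lay several-fold above the highest isotype library. Adgre1, which encodes F4/80, had 131 isotype and 4100 anti-B7-H3 reads, at least 4.33-fold higher. It was 1 of 2 with a bound of at least 2-fold among the 6 macrophage genes at background.

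Genes of antigen capture, migration and wound macrophages rose as well. All 13 of 22 that stood above background rose, with a median of 2.96. Ccl8, a chemokine of resident-like macrophages (chr11:82115185-82116799), had 38, 23 and 31 isotype reads and 5508, 5143 and 5265 anti-B7-H3 reads, 32.3-fold higher in CPM (5.01 ± 0.07, adjusted p = 2.71e-46). Chil3, the chitinase-like protein Ym1, went from 126, 169 and 139 to 2260.3, 2310.5 and 2270.4 CPM (3.99 ± 0.06), and Mgl2, a galactose lectin, from 64.5, 54 and 51.1 to 646, 675 and 648 CPM (3.52 ± 0.08). Arg1, which breaks down arginine, went from 207, 237 and 225 to 1769.8, 1802 and 1785 CPM (3.01 ± 0.05). Il4ra, the receptor chain for the cytokines that induce this state, rose by 2.39 ± 0.08. Among members at background, Fcna was at least 5.90-fold and Folr2 at least 5.15-fold higher.

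**Figure D4:**
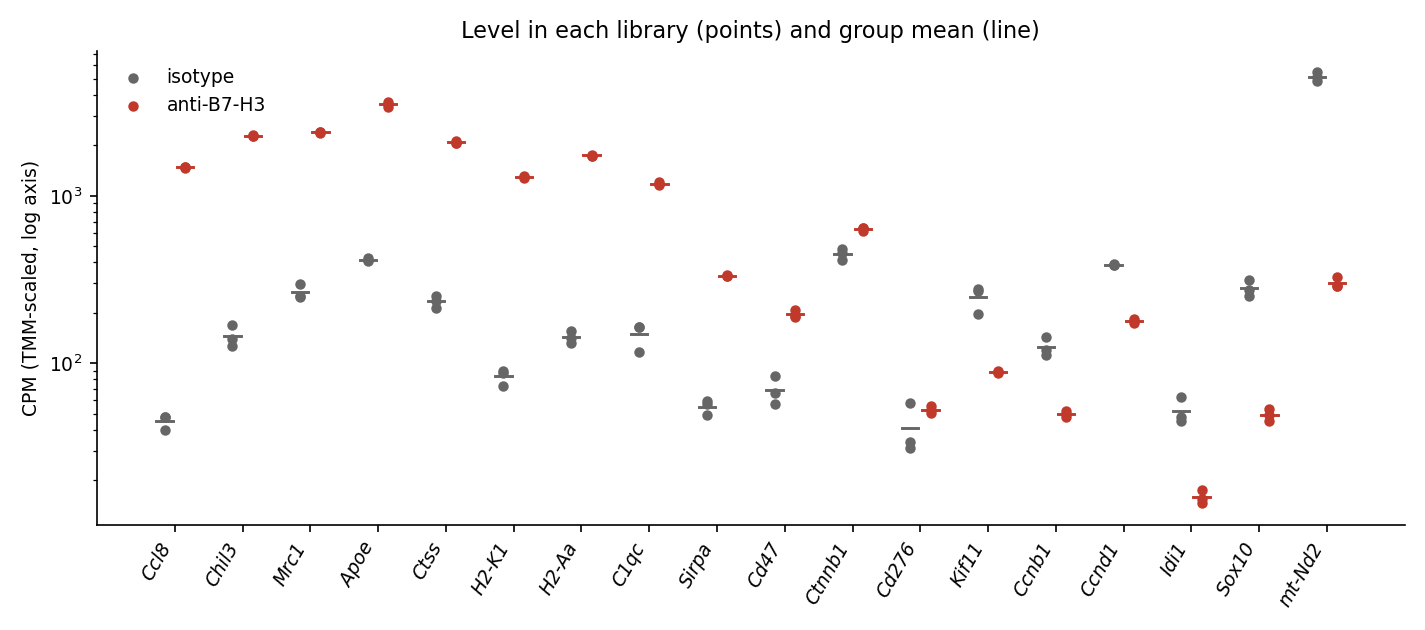
Level of 18 genes in each library (CPM, log axis), with grey points for isotype, red points for anti-B7-H3 and a line at each group mean. Ccl8 to Ctnnb1 are higher in anti-B7-H3 libraries without overlap, Cd276 overlaps, and Kif11 to mt-Nd2 are lower. Levels of different genes are not corrected for length and are not to be compared with each other.

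Receptors that read antibody and the lysosomes that follow uptake rose together. All 5 of 14 Fc receptor and adaptor genes above background rose (median 2.44). Tyrobp, the adaptor DAP12, went from 27.8, 15.7 and 17 to 209.6, 205 and 222 CPM (3.34 ± 0.18), the activating receptor Fcgr3 from 58.2, 48.8 and 65 to 351, 383 and 362 CPM (2.66 ± 0.10), and the inhibitory receptor Fcgr2b from 119, 106 and 116 to 616, 609 and 631 CPM (2.44 ± 0.07). Activating and inhibitory receptors thus rose side by side, and Fcgr4 was at least 2.03-fold higher by its bound. Of 23 lysosome and cathepsin genes, 18 stood above background and all 18 rose (median 1.84). Ctss was at 236, 253 and 214 CPM in isotype and 2078, 2116 and 2074 CPM in anti-B7-H3 libraries, and Ctsc, which activates granule proteases, rose by 2.48 ± 0.06. Among receptors for dying cells 5 of 7 tested members rose, with a median of 0.51. Mfge8, a bridge to dying cells, rose by 1.80 ± 0.11 and Stab1 by 1.59 ± 0.06, while Scarb1 had a log2 fold change of 0.02 ± 0.16 and did not pass.

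Complement genes rose. All 7 of 19 genes above background rose (median 2.02), led by the 3 chains of C1q, which starts the classical pathway on bound antibody. C1qc went from 116, 164 and 166 to 1172, 1165 and 1203 CPM (3.01 ± 0.07), C1qa rose by 2.98 ± 0.06 and C1qb by 2.60 ± 0.06. C3, the protein on which all complement routes meet, had 86, 83 and 89 isotype reads, which is under 3 times background, and 15338, 13754 and 13995 anti-B7-H3 reads, at least 25.5-fold higher. Properdin (Cfp) was at least 8.23-fold higher and the inhibitor Serping1 at least 6.10-fold higher.

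Chemokine genes rose where they could be tested. Of 29 chemokine and receptor genes, 4 stood above background and all 4 rose, and 12 of the 25 at background were at least 2-fold higher by their bound. Ccl24 (eotaxin-2) went from 21.5, 24.4 and 21.7 to 231, 219 and 203 CPM (3.28 ± 0.15) and Ccl6 from 53.1, 36.6 and 46.5 to 449, 436 and 442 CPM (3.26 ± 0.11). Ccl9 had 11, 3 and 4 isotype and 473, 428 and 417 anti-B7-H3 reads, at least 10.5-fold higher, and Cxcl16 and Pf4 were at least 7.68- and 7.17-fold higher. Il33, an alarm cytokine of stromal cells, and Tnfsf13b, the B cell survival factor BAFF, went the other way, from 114, 80.1 and 129 to 40.1, 43.8 and 45.9 CPM (-1.33 ± 0.14) and from 32.9, 41.8 and 31 to 10.4, 10.4 and 6.76 CPM (-1.92 ± 0.28).

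Pan-leukocyte genes rose, and no gene of the T cell and natural killer cell lists could be tested. All 8 of 22 leukocyte genes above background rose (median 2.57), with Cd52 at 3.33 ± 0.26, Cd53 at 2.80 ± 0.16 and the actin bundler Lcp1 at 2.77 ± 0.08. Of 22 T cell genes none stood above background in isotype control and none had a bound of at least 2-fold. Their summed level was 181 to 239 CPM in isotype libraries, where the mean expected background is 213 CPM, and 225 to 243 CPM in anti-B7-H3 libraries. The isotype sum thus lay at background, and the sums overlapped. Nor did any of 16 natural killer and cytotoxic genes stand above background or reach a bound of 2-fold. Their sum was 141 to 197 CPM in isotype libraries (expected background 163 CPM) and 216 to 223 CPM in anti-B7-H3 libraries, without overlap. The 14 genes of mast cells, basophils and eosinophils, also all at background, summed to 140.4 to 176 CPM in isotype (expected background 184 CPM) and 127 to 131 CPM in anti-B7-H3 libraries. These sums were not tested. Isotype sums are close to their background, whereas anti-B7-H3 libraries, at 0.0514 to 0.0595 Olfr reads per kilobase, hold little of it. An overlap or a lower sum is therefore not a measure of equal or fewer transcripts of these cell types, and no fold is given. Dendritic cell genes were as hard to read, since 15 of 16 lay at background, and Itgax and Clec10a, both shared with macrophages, were at least 4.03- and 2.99-fold higher. Of 16 monocyte and neutrophil genes 2 stood above background and rose, Chil3 and Fn1, and 4 of the other 14 had a bound of at least 2-fold. Among these 4 Retnlg, a neutrophil gene, had 14 isotype and 779 anti-B7-H3 reads, at least 6.50-fold higher. Chil3 is counted in the wound macrophage list and Fn1 in the collagen and fibroblast list too, so neither is particular to monocytes or neutrophils.

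Genes of the stromal matrix mostly rose. Of 26 collagen and fibroblast genes, 19 were tested, of which 16 rose and 2 fell (median 1.27). Col1a2, of fibrillar collagen I, went from 1013, 942 and 1045 to 4581, 4553 and 4604 CPM (2.19 ± 0.05), Fbn1 (fibrillin-1) rose by 1.90 ± 0.05 and Postn (periostin) by 1.78 ± 0.05. The 2 genes that fell were the basement membrane collagens Col4a1 (-0.21 ± 0.04) and Col4a2 (-0.41 ± 0.04), and both turn to a positive value without the background rule. Fn1 (fibronectin) went from 7287, 6741 and 6761 to 18281, 17913 and 18049 CPM (1.38 ± 0.05). Of 24 matrix remodelling genes 16 were tested and 15 rose (median 1.45), led by the macrophage elastase Mmp12, from 80.9, 80.1 and 82.1 to 664, 713 and 696 CPM (3.09 ± 0.08), and the collagen cross-linker Lox (2.90 ± 0.10).

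The TGF-β ligands moved apart. Tgfb1 went from 68.3, 105 and 66.6 to 265, 284 and 277 CPM and rose by 1.81 ± 0.11, whereas Tgfb2 went from 63.2, 54 and 41.8 to 20.2, 16.5 and 17.8 CPM and fell (-1.56 ± 0.19). Tgfbi, a matrix protein named for its induction by the pathway, rose by 1.60 ± 0.06, and Bmp1, a procollagen protease, by 1.26 ± 0.08. In all 8 of 15 tested genes of the list rose and 3 fell, against 33.1% higher and 36.1% lower over all genes tested. Vessel genes gave 4 that could be tested. Eng (endoglin) rose by 0.84 ± 0.11 and Vegfa by 0.79 ± 0.15, while Mcam (-1.20 ± 0.05) and Cspg4 (-0.78 ± 0.05), found on pericytes and also on melanoma cells, fell. The fall of Cspg4 lies within the shift of 1.14 from read totals alone.

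Sox10 and Cdh19 fell, and so did most tested genes of the nerve and Schwann cell list. Sox10, a factor of the neural crest, from which melanocytes and Schwann cells arise, was at 274, 315 and 251 CPM in isotype and 45.4, 49 and 53 CPM in anti-B7-H3 libraries, a log2 fold change of -2.50 ± 0.10 (SE, adjusted p = 1.06e-27). Cdh19, an adhesion molecule of the same lineage, went from 204, 199 and 147 to 57.9, 69.9 and 59.7 CPM (-1.56 ± 0.11). Every isotype library lay above every anti-B7-H3 library for both genes, as for 37% of all genes tested. Both falls exceed the shift of 1.14 that read totals alone would give. In the nerve and Schwann cell list 7 of 9 tested genes fell and none rose (median -0.75), with Tubb3 (-0.11 ± 0.12) and Pmp22 (-0.44 ± 0.22) not passing, and this median lies within the shift of 1.14. Over the same libraries the summed level of the 18 macrophage genes was 2002 to 2128 CPM in isotype and 13466 to 13798 CPM in anti-B7-H3 libraries, and the part of this shift in the falls of Sox10, of mitosis genes and of sterol synthesis genes was not tested. Axl, a receptor kinase of macrophages and of dedifferentiated melanoma cells, went from 364, 339.7 and 329.8 to 737, 707 and 699 CPM and rose by 1.05 ± 0.05.

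Growth and β-catenin genes moved in both directions. Ccnd1 (cyclin D1) went from 386, 394 and 386 to 183, 178 and 174 CPM and fell (-1.12 ± 0.06), as did the Wnt factor Tcf7l2 (-1.20 ± 0.18) and Apc of the β-catenin destruction complex (-0.90 ± 0.06). The falls of Ccnd1 and Apc lie within the shift of 1.14 from read totals alone. Cd44 rose by 0.81 ± 0.08, and Gsk3b (-0.12 ± 0.11) did not pass. Of 14 tested genes of the melanoma growth pathway 3 rose and 7 fell, with a median of -0.16 that turns to 0.24 without the background rule. The shares over all genes tested were 33.1% higher and 36.1% lower. Spry2 (-0.97 ± 0.17) and Etv5 (-0.72 ± 0.10), targets of mitogen-activated kinase signalling, fell, both within that shift of 1.14. Dusp6, another such target, had a log2 fold change of -0.02 ± 0.09 and did not pass. Akt1 rose by 1.17 ± 0.09 and Cdkn1a, the cell cycle inhibitor p21, by 0.58 ± 0.17.

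Genes of cell division fell against the middle of the genes tested. All 22 of 24 mitosis genes above background fell, with a median of -0.99. Kif11, a motor of the spindle, was at 196, 270 and 277 CPM in isotype and 86.9, 88.5 and 90.4 CPM in anti-B7-H3 libraries (-1.46 ± 0.10). Cenpf went from 513, 507 and 503 to 153, 163 and 189.6 CPM (-1.59 ± 0.07), Ccnb1 (cyclin B1) from 144, 111 and 121 to 47.8, 49.6 and 51.6 CPM (-1.36 ± 0.12) and the proliferation marker Mki67 from 1294, 1228 and 1152 to 517, 539.9 and 552 CPM (-1.19 ± 0.05). With expected background reads subtracted, 21 fell and none rose (median -1.04). Without the background rule 18 fell and none rose (median -0.56). The median lies within the shift of 1.14 from read totals alone. Among replication genes 6 of 9 tested fell and none rose (median -0.39), among them Tyms (-0.97 ± 0.19), Mcm2 (-0.81 ± 0.13) and Mcm7 (-0.74 ± 0.12), and their median turned to 0.06 without the background rule.

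Genes of sterol synthesis fell and genes of sterol export rose against the middle of the genes tested. Of 15 tested genes of cholesterol and fatty acid synthesis 14 fell and 1 rose (median -0.82). Idi1, an isomerase of the mevalonate route, went from 63.2, 45.3 and 48 to 14.6, 17.4 and 15.5 CPM (-1.74 ± 0.21), and Fdps (-1.10 ± 0.12) also fell. Acly, which supplies acetyl-CoA, was the 1 gene that rose (0.56 ± 0.07). Without the background rule 13 fell and 2 rose, and the median lies within the shift of 1.14 from read totals alone. All 7 tested genes of efflux and lipid handling rose (median 0.79), with the exporter Abca1 at 229, 204 and 215 CPM in isotype and 930.2, 894 and 900.2 CPM in anti-B7-H3 libraries (2.06 ± 0.06) and the transfer protein Pltp at 2.68 ± 0.12. The efflux median lies below those of the housekeeping (0.88) and ribosomal protein (0.93) lists. Apoe is counted in the macrophage list too.

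Mitochondrial genes split by the genome that encodes them. All 13 protein genes of the mitochondrial genome fell (median -2.51), whereas 19 of 25 nuclear genes of oxidative phosphorylation rose and none fell (median 0.62). Without the background rule 12 of the 13 fell and none rose. The nuclear median lies below that of the housekeeping list (0.88). The mitochondrial falls were uneven, and those of mt-Co1 and mt-Co3 lie within the shift of 1.14 from read totals alone. mt-Nd2 went from 5093, 5461 and 4872 to 291, 329 and 287 CPM (-4.09 ± 0.06), mt-Nd6, the only protein gene on the light strand, from 3751, 5309 and 5664 to 223, 274 and 278 CPM (-4.25 ± 0.17) and mt-Nd5 had a log2 fold change of -3.67 ± 0.07. In contrast mt-Co1 went from 9652, 9627 and 9060.3 to 5967, 6350.5 and 6107 CPM (-0.62 ± 0.05) and mt-Co3 from 2581, 2733 and 2513 to 1719, 1785 and 1721 CPM (-0.58 ± 0.04), so genes of 1 molecule differed in fold by more than 3 on the log2 scale. Their share of all reads outside the satellite-like genes was 2.60% to 2.83% in isotype, 2.52% to 2.62% in anti-PD1, 1.69% to 1.81% in combination and 1.45% to 1.57% in anti-B7-H3 libraries, the same order as the satellite-like reads, and the part of those reads in this fall was not tested. Among the nuclear genes Cox5a rose by 1.45 ± 0.18 and Uqcrfs1 by 1.36 ± 0.19, while Ndufv1 (0.06 ± 0.12) did not pass.

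Ribosomal protein and proteasome genes rose, and other genes of protein synthesis moved both ways, as did the genes tested as a whole. All 30 cytosolic ribosomal protein genes rose (median 0.93). The smallest rise was 0.13 for Rps2, which turns to -0.18 with background reads subtracted. Of 17 tested genes of translation and ribosome biogenesis 6 rose and 7 fell, with a median of -0.07 that turns to 0.32 without the background rule. Over all genes tested 33.1% were higher and 36.1% lower. The elongation factor gene Eef1a1 rose by 1.15 ± 0.05, and Nolc1, of the nucleolus, fell (-0.55 ± 0.13), within the shift of 1.14 from read totals alone. Of 22 proteasome genes 19 rose and none fell (median 0.63), led by the interferon-inducible activator subunits Psme2 (1.69 ± 0.14) and Psme1 (1.48 ± 0.14). In the housekeeping list 11 of 13 tested genes rose and 2 fell (median 0.88). Actb went from 4364, 3790.3 and 4207 to 9233, 9037 and 9169 CPM and rose by 1.15 ± 0.05, while Gapdh went from 4071, 4159.6 and 4262 to 3799.8, 3686 and 3733 CPM and fell (-0.15 ± 0.05), a fall that turns to a rise without the background rule. Ribosomal and housekeeping genes, which all cells use, thus had medians near 0.9 on this scale. The macrophage and MHC medians stand above these, and the proteasome median (0.63) lies below them.

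Stress genes rose in part, and no list median given here exceeded that of the ribosomal protein genes (0.93). Of 14 tested genes of oxidative stress and iron handling 12 rose and none fell (median 0.91), with Gpx1 at 1.91 ± 0.09 and transferrin (Trf) at 1.71 ± 0.05. In the unfolded protein response 10 of 13 rose (median 0.65), among them the chaperone Pdia6 (1.26 ± 0.08). Ddit3 (CHOP) went from 27.8, 27.9 and 34.1 to 17.3, 14.5 and 13.5 CPM and fell (-0.98 ± 0.23), within the shift of 1.14 from read totals alone. Of 21 tested genes of hypoxia and glycolysis 14 rose and 3 fell (median 0.47). Pfkp rose by 1.10 ± 0.08 and Pgk1 by 0.83 ± 0.06, whereas Car9, a marker of low oxygen, went from 70.8, 47 and 75.9 to 20.7, 24.4 and 23.1 CPM and fell (-1.53 ± 0.18). Immediate early genes divided, with Junb (1.81 ± 0.11) and Jund (1.70 ± 0.15) higher and Fos (-1.44 ± 0.20), Nr4a1 (-2.05 ± 0.16) and Egr3 (-2.24 ± 0.27) lower. Nr4a1 went from 86, 108 and 116 to 27.4, 22.6 and 23.9 CPM and Egr3 from 26.6, 48.8 and 41.8 to 7.44, 8.70 and 7.89 CPM, without overlap. Over all genes tested 37% were lower without overlap.

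**Figure D5:**
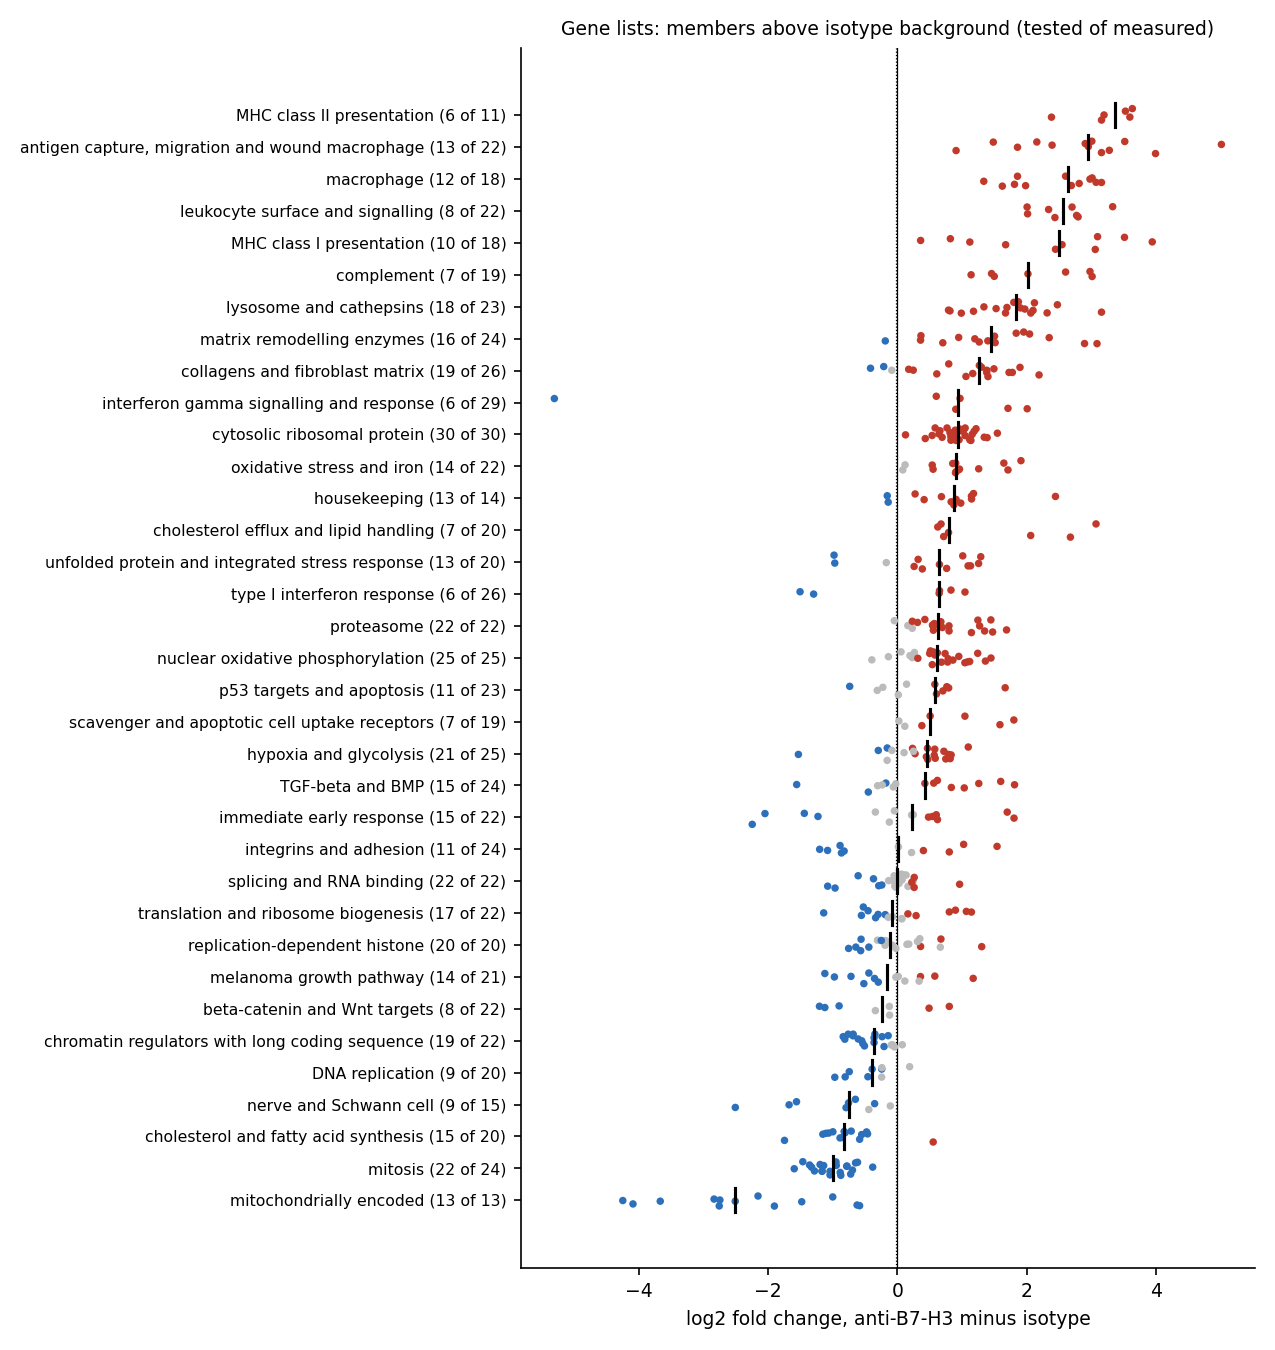
Log2 fold change, anti-B7-H3 minus isotype, of each tested member of the lists with at least 6 tested members, with red for higher, blue for lower and grey for not passed, a black bar at the list median and a dotted line at the median of all genes tested (-0.02). Medians run from 3.36 for class II presentation to -2.51 for mitochondrially encoded genes, and numbers in brackets are members tested of members measured.

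The largest falls were in genes with few or no reads in anti-B7-H3 libraries. Ttll10, a tubulin-modifying enzyme gene, had 473, 574 and 770 isotype and 0, 1 and 0 anti-B7-H3 reads. Duxf3, a homeobox gene of the early embryo, had 178, 164 and 178 isotype reads and none in anti-B7-H3 libraries, at least 927.7-fold lower. Flg, the filaggrin gene of the skin barrier, had 114, 126 and 78 isotype reads and none in anti-B7-H3 libraries, at least 567.3-fold lower. Rtl1, Muc6, Obox3, Stra8, Krt9, Amy2a5 and Ube2u, genes of germ cells, placenta and specialised epithelia among them, had 142 to 1282 isotype and 0 to 3 anti-B7-H3 reads. Among the 721 genes that fell at least 2-fold, 129 had 3 or fewer anti-B7-H3 reads and 170 had predicted or clone names, against 5 such names among the 450 that rose. This contrast is partly set by the background rule, since a gene read only in isotype libraries could be tested and a gene read only in anti-B7-H3 libraries could not. Ttll10 stood at 598.2 to 1192 CPM in isotype, 100.5 to 130.6 CPM in anti-PD1, 5.05 to 15.8 CPM in combination and at most 0.29 CPM in anti-B7-H3 libraries. Neb, the only skeletal muscle gene above background, followed the same order, with 1042 to 1275, 599.3 to 622.3, 275.3 to 291.8 and 51.6 to 70.4 CPM. That order is also the order of the satellite-like reads in the 4 groups, and their part in these falls was not tested.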

How the data were processed

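In all, 12 libraries of skin tumour RNA were sequenced as rRNA-depleted total RNA, per the labels' protocols, and the deposited files give estimated counts (expected counts, NumReads) and TPM per transcript. FastQC 0.11.8 and build GRCm38 are named in the submitters' processing notes; the program that assigned reads to transcripts, and whether it used strand, are not given in the sources used here. Without strand, reads of a gene and an overlapping antisense gene cannot be told apart. The TPM values the authors deposited were not used in tests. Estimated counts were summed per gene through the GENCODE annotation (57473 of 58083 transcripts matched) and rounded to whole numbers. Of the transcripts, 87.3% have lengths that are multiples of 3, so lengths are coding lengths. The 12 satellite-like genes were left out, and the background was taken from 1103 Olfr genes.

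Genes above 3 times background were tested with edgeR 4.0.16 (quasi-likelihood test, TMM scaling, 1 mean per group over 4 groups, robust spread) in R 4.3.3, with DESeq2 1.42.0 among the alternatives. On simulated counts for this comparison over 4478 genes, 92% of 100 genes changed by 1 on the log2 scale were recovered. Of 100 changed by 2, 100% were recovered, and 3.03% of calls were false. Few genes were changed there, as many up as down, with a fixed spread and the same background in all groups. In the real libraries 69.2% of genes tested were called and background differed between groups. The 3.03% is therefore not the false share of these calls. Background reads were not subtracted from isotype levels. Sequences are from RefSeq, build GRCm38.p6. Reads outside the satellite-like genes are fewest in isotype libraries of the 2 groups compared, which limits the precision of their values.

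The members and gene lists were chosen with earlier results of these data known. Genes named are the targets, the 10 largest rises and falls by log2 fold change with a mean of at least 5 CPM, groups that do not overlap and no predicted name, the 10 largest bounds, and for each list up to 3 called members per direction and up to 2 that did not pass. Arg1, Cd74, Csf1r, Mki67, Psmb8, Rps2, Sdc1, mt-Co1 and mt-Co3 were named after their values were seen. A few genes that the rule picks are not reported here. Alternatives were other scalings, filters and background rules, another tool, a replicate block and leaving out each library.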

Additional observations from a re-analysis of the deposited data

How the results depend on the processing

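Without the background rule 5400 genes were higher and 6468 lower, with the rule at 10 times background 350 and 368, with a fold of at least 2 required 450 and 721, and with the median Olfr rate as background, chosen after seeing the data, 2207 and 2458. The median transcript length gave 2209 and 2381, and the Olfr rate without Olfr93 and Olfr1055, also chosen after seeing the data, 2012 and 2222. Leaving out 1 library gave 1374 to 1432 higher and 1511 to 1596 lower. Without the background rule the log2 fold change turned positive for Cd200 (0.42), Col4a2 (0.069), Col4a1 (0.27), Gsk3b (0.36), Dusp6 (0.46), Gapdh (0.33) and Tubb3 (0.37), and Rps2 turned negative at 10 times background (-0.032) and with background subtracted (-0.18); the causes were not tested. Of 133 genes named and tested, 118 kept their direction and their side of the threshold under each of the 22 alternatives that gave a value. With a replicate block 1465 genes were higher and 1601 lower, but the numbers share no stated origin and the same-numbered libraries deviated together only weakly (correlations of 0.121, 0.0216 and 0.0718), and anti-B7-H3 library 2 correlated slightly better with isotype library 3 (0.024). The background rule, not depth alone, set which genes could be tested, and it left 17685 genes with a bound at most.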
